A study of Homo sapiens with 20 samples.

Results

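The 39 genes described here encode the machinery of glucose breakdown and the best-known targets of the hypoxia-inducible factors (HIFs). They were chosen by name and found in the deposited count table by matching its Entrez IDs to official human symbols. In all, 24 of them act in glucose uptake, glycolysis, lactate handling or the control of these steps, and 15 are other HIF targets or HIF subunits. All 39 were among the 27864 genes of the table and among the 16323 that passed the filter on low counts. SUM159PT is an established human breast cancer line of the triple-negative, mesenchymal-like kind, and every library came from it. Unmodified cells (wt) were set against 2 pools in which CRISPR guides were aimed at NNMT, the enzyme that methylates nicotinamide. For the KOs pool 1 guide was placed where transcription starts. For the KOd pool 2 guides were used to cut out exon 1. Both pools are mixtures of a few clones. Each genotype was grown attached to plastic in Ham's F12 with 5% serum, insulin and hydrocortisone (2D), or as spheres in suspension (3D). Spheres were grown for 2 rounds of 6 days in serum-free DMEM/F12 holding B27 and 20 ng/mL each of EGF and basic FGF. These 6 groups had n = 3 libraries each, lettered A to C. A seventh group of n = 2 (wt medium) held attached wt cells whose medium was exchanged for sphere medium at 50% confluency and which were collected at 80%. Between 2D and 3D the medium and the culture format change together, and the labels name 2 RNA kits without saying which libraries had which, so these cannot be told apart in the 3D against 2D comparisons.

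Glycolysis splits glucose into pyruvate through a fixed series of enzymes, and lactate dehydrogenase then turns pyruvate into lactate, which monocarboxylate transporters carry out of the cell. HIFs are pairs of an oxygen-regulated alpha subunit, HIF-1α (HIF1A) or HIF-2α (EPAS1), and a stable partner, ARNT. With oxygen present, prolyl hydroxylases of the EGLN family mark the alpha subunit for removal by the VHL ligase. Stable HIF binds a short core sequence in DNA and raises many glycolytic genes together with genes for blood vessel growth, pH control and mitophagy. The alpha subunits are controlled mainly as proteins, which RNA counts do not measure, and no oxygen level is given for these cultures.

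The promoters of 5 members are shown because these genes stand for the patterns below: CA9 and BNIP3 were lower in 3D in every genotype, ALDOC was higher in 3D in every genotype, and HK2 and ENO2 moved in opposite directions in wt and in the pool labelled KOs. Each is the 250 bases before the RefSeq start site (GRCh38.p14), 5′ to 3′ on the gene's strand. Capitals mark each match to ACGTG or GCGTG, the core of the HIF response element, read on either strand. The CA9 stretch is chr9:35673678-35673927 on the plus strand, with a match 18 bases before the start.
CA9: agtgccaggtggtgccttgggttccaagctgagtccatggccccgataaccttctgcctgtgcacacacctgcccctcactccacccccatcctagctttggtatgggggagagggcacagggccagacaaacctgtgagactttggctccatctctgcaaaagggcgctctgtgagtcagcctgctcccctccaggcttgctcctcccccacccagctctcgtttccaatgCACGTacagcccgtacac
The BNIP3 stretch is chr10:131981924-131982173 on the minus strand.
BNIP3: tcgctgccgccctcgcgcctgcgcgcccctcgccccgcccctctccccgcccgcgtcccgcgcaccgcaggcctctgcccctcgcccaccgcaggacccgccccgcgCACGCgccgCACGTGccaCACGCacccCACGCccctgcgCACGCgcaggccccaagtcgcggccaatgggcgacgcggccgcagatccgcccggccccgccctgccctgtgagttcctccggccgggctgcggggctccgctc
The ALDOC stretch is chr17:28576896-28577145 on the minus strand.
ALDOC: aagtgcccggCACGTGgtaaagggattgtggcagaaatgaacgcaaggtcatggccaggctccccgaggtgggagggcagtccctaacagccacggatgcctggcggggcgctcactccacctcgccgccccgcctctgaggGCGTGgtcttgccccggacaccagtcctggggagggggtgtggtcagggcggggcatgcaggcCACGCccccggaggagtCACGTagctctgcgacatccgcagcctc
The HK2 stretch is chr2:74833877-74834126 on the plus strand.
HK2: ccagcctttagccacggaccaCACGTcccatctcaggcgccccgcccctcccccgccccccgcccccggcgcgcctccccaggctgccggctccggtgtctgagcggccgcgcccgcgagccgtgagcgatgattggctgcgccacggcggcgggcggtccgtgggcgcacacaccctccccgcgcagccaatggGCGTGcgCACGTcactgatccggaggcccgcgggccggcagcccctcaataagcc
The ENO2 stretch is chr12:6914330-6914579 on the plus strand.
ENO2: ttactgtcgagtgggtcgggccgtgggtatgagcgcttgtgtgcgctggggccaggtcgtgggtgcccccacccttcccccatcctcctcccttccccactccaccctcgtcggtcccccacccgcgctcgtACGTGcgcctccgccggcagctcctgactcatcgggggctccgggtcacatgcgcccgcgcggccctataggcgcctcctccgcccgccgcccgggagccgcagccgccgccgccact
RefSeq promoters of 300 bases (250 before and 50 after the start) were at hand for 34 of the 39 genes. ACGTG or GCGTG was found in 25 of these 34 (73.5%), beside 48.4% of 35116 promoters of the same length. ACGTG alone was in 14 (41.2%, beside 21.4%), and CACGTG, which holds ACGTG on both strands and is also the site of other factors, was in 5 (14.7%, beside 7.26%). These matches describe the letters only. The promoters set beside the 34 were not matched for GC content, which ran from 36.3% to 80.7% in the 34.

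Libraries held 26396964 to 43744817 counts. The 6 libraries labelled KOs had the most counts, at least 37316513 each, and the least ribosomal RNA, 0.926% to 2.7%, while the other 14 had at most 32016875 and 2.82% to 8.46%. NNMT itself was at 117 ± 13.3 CPM (the count scaled to a common library total after TMM, mean ± SD) in wt 2D and 4.55 ± 0.139 in KOd 2D, but at 106 ± 27.6 in labelled KOs 2D and 84.8 ± 1.75 in labelled KOs 3D. The 2D value is a log2 fold change (± SE) of -0.14 ± 0.17 (adjusted p = 0.52) against wt. A small edit need not lower the RNA, so this count does not check the edit in that pool, and its libraries are called "labelled KOs" throughout. Replicate C of KOd 3D, replicate C of wt 3D and replicate A of labelled KOs 2D stood apart from their replicates. Values without them are given for some of the results that rest on them, not for all. VIM, CD44, ZEB1 and SNAI2, which mark this line, were present in every library, and ESR1, PGR, CDH1 and EPCAM were near 0. ERBB2, the fifth gene listed as low in this line, was at 54.2 to 99 CPM. Whether replicates came from separate cultures is not said in the labels, and the p-values rest only on how far these libraries differ, which may be technical.

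**Figure D1:**
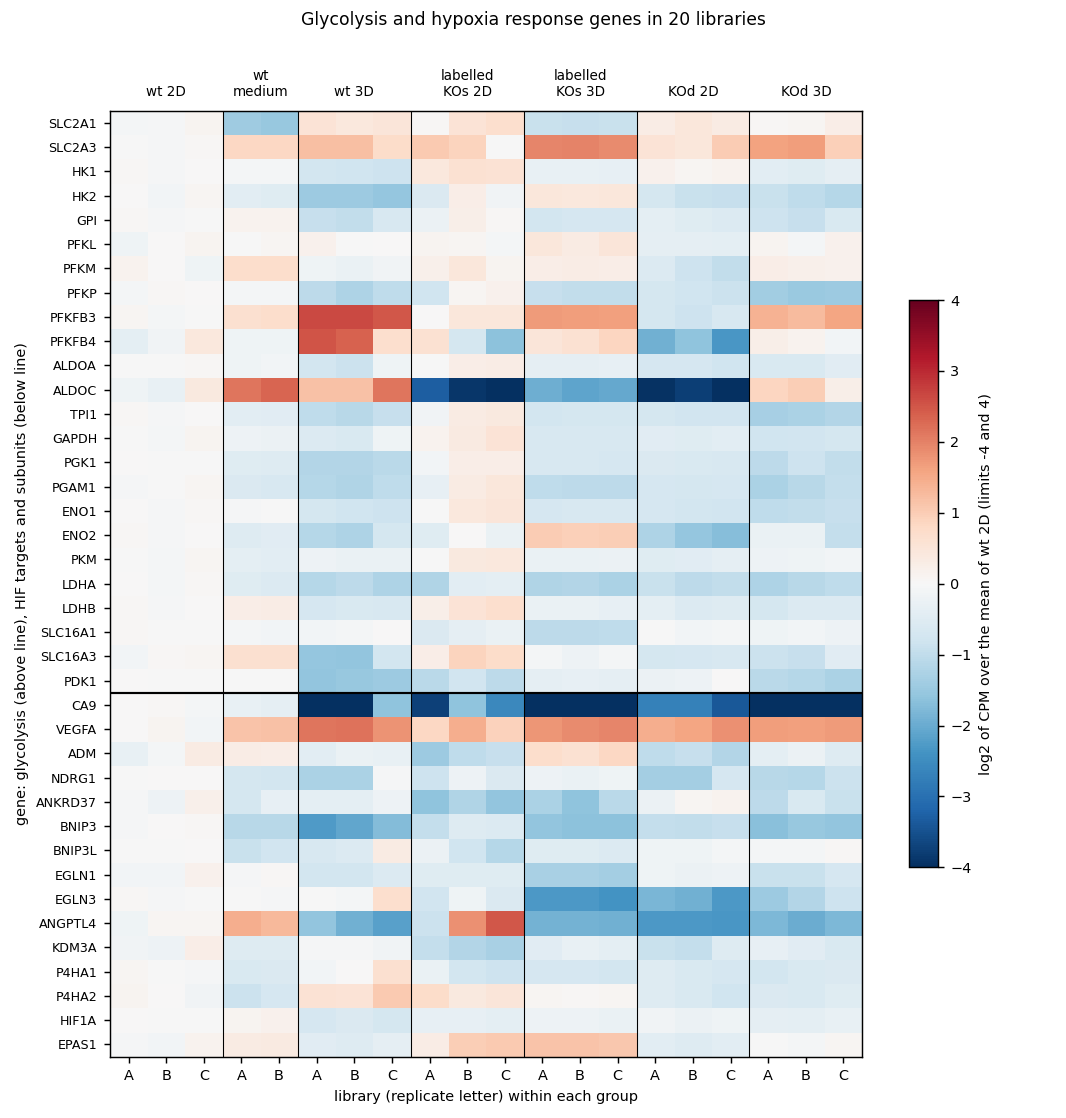
Heat map of the 39 genes (rows, with glycolysis genes above the line and HIF targets and subunits below) in 20 libraries (columns, by group and replicate letter). Colour is the log2 ratio of CPM to the mean of wt 2D, with the scale ending at -4 and 4. Most glycolysis genes lie on the blue side, below the mean of wt 2D, in wt 3D, labelled KOs 3D, KOd 2D and KOd 3D. CA9 is blue in all groups but wt 2D and wt medium, and PFKFB3, SLC2A3 and VEGFA are red in the 3D groups.

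In wt 2D the levels, as CPM per kilobase of gene length (± SD, n = 3), varied widely. GAPDH was at 2497 ± 180.4, ENO1 at 1233 ± 44.7 and PKM at 960.4 ± 49.1, and these enzymes of the later steps were followed by LDHA at 873 ± 37.9. HIF1A was the highest gene of the HIF list at 235 ± 3.26, ahead of BNIP3 at 58.6 ± 1.43 and CA9 at 53.7 ± 2.28. ANKRD37 at 3.39 ± 0.481 and PFKFB4 at 2.28 ± 0.677 were the lowest of the 39. Together the 24 glycolysis genes took 2.13% ± 0.04 of all counts in wt 2D, 1.9% ± 0.021 in wt medium and 1.43% ± 0.023 in wt 3D. In the pools the share was 2.38% ± 0.3 in labelled KOs 2D, 1.65% ± 0.0058 in labelled KOs 3D, 1.58% ± 0.021 in KOd 2D and 1.5% ± 0.026 in KOd 3D. The shares in 3D lay below those in 2D in every genotype, with the smallest step in KOd. In bulk RNA, fewer cells with a transcript and less transcript per cell cannot be told apart.

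The first comparison asks what changes when each genotype is grown as spheres. A gene counted as changed when edgeR's quasi-likelihood test gave a Benjamini-Hochberg adjusted p under 0.05 over all genes tested. Changes and differences are log2 values printed with their sign, so a fall or a lower level is negative. In wt, 5 of the 24 glycolysis genes rose and 16 fell, with a median log2 fold change of -0.70, and 2 of the 15 HIF genes rose and 7 fell, with a median of -0.34. Over all genes 63.7% passed, 33.3% upward and 30.4% downward, with a median of 0.04, so the number of the 39 that passed (30) is not far above the background while the split is 7 higher to 23 lower. In labelled KOs 7 glycolysis genes rose and 15 fell (median -0.61), and 3 HIF genes rose and 6 fell (median 0.12), beside 65% of all genes (32.9% higher, 32.1% lower). In KOd 8 glycolysis genes rose and 9 fell (median -0.14), and 4 HIF genes rose and 5 fell (median 0.05), beside 66.4% of all genes (35.2% higher, 31.2% lower). These 3 comparisons share no library, but they share 1 estimate of the spread, so their calls are not fully independent. HK1, GPI, PFKP, TPI1, GAPDH, PGK1, PGAM1 and ENO1 fell in all 3, as did CA9, BNIP3 and EGLN1, and SLC2A3, PFKFB3 and ALDOC rose in all 3.

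**Figure D2:**
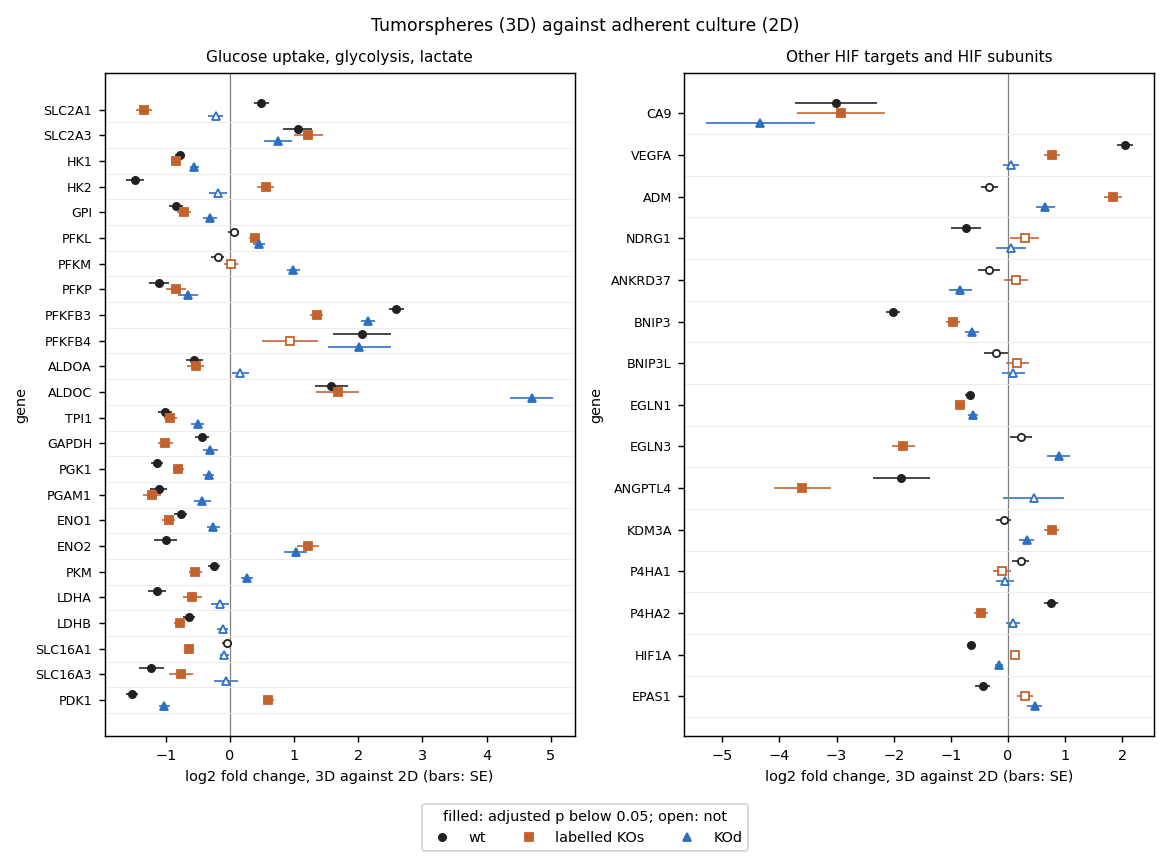
Log2 fold change of 3D against 2D (x axis) for each gene (y axis) in wt, labelled KOs and KOd, with bars for the SE derived from the test and filled symbols for adjusted p under 0.05. HK2, PDK1 and ENO2 lie left of 0 in wt and right of 0 in labelled KOs, CA9 and BNIP3 lie left of 0 in all 3 genotypes, and ALDOC is farthest right in KOd at 4.70.

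Glucose enters the cell through SLC2A1 (GLUT1) and SLC2A3 (GLUT3). SLC2A1 (Entrez 6513, chr1:42925353-42958868) was at 282, 287 and 318 CPM in wt 2D, 429, 398 and 416 in wt 3D and 111 and 103 in wt medium. In wt it was higher in 3D than in 2D, by 0.49 ± 0.12 (adjusted p = 0.0014), and the 2 medium libraries were the lowest of the series. In labelled KOs it was at 306, 429 and 469 in 2D and 158, 157 and 160.3 in 3D, and in KOd at 363, 403 and 368 in 2D and 307, 312 and 355 in 3D. Labelled KOs showed the opposite change to wt, -1.34 ± 0.12 (adjusted p = 4e-08), with no overlap of libraries, and the difference between the 2 changes was -1.82 ± 0.16 (adjusted p = 4.5e-07). In KOd the change was -0.22 ± 0.12 (adjusted p = 0.1). SLC2A3 was at 60.8, 59.6 and 62.5 CPM in wt 2D and 139, 139 and 102 in wt 3D. For SLC2A3, labelled KOs gave 127, 114 and 60.05 in 2D and 234, 240.1 and 228 in 3D, and KOd gave 88.3, 82.8 and 125 in 2D and 184, 193 and 119 in 3D. It rose with 3D by 1.06 ± 0.23, 1.22 ± 0.23 and 0.75 ± 0.22 (adjusted p = 0.00056, 0.00014 and 0.007), and the libraries overlapped between cultures in KOd alone.

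Hexokinases trap glucose as glucose 6-phosphate, HK1 being the broadly expressed form and HK2 the inducible HIF target. HK1 fell in 3D in each genotype, by -0.79 ± 0.07 in wt, -0.84 ± 0.07 in labelled KOs and -0.56 ± 0.07 in KOd (adjusted p = 4.2e-08, 2.4e-08 and 2.2e-06). HK2 (Entrez 3099, chr2:74834127-74893359) did not follow it. Its level was 126, 117 and 133 CPM in wt 2D and 45.8, 46.2 and 43.2 in wt 3D. For HK2, labelled KOs gave 83.5, 149.5 and 115 in 2D and 172, 169 and 170.4 in 3D, and KOd gave 77.2, 67.5 and 66.5 in 2D and 67, 61.5 and 57.2 in 3D. Wt 3D held the lowest and labelled KOs 3D the highest values of the series, and neither overlapped with its own 2D group. The change was -1.48 ± 0.14 (adjusted p = 8.1e-08) in wt, 0.56 ± 0.14 (adjusted p = 0.0017) in labelled KOs and -0.19 ± 0.14 (adjusted p = 0.25) in KOd. Against the change in wt, that in labelled KOs differed by 2.04 ± 0.20 (adjusted p = 9.5e-07) and that in KOd by 1.29 ± 0.20 (adjusted p = 9.8e-05). As a share of HK1 and HK2 together, per length, HK2 made up 13.4% ± 0.56 in wt 2D, 8.77% ± 0.17 in wt 3D, 20.7% ± 0.2 in labelled KOs 3D and 9.3% ± 0.86 in KOd 3D.

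Phosphofructokinase commits the sugar to glycolysis, and PFKFB3 and PFKFB4 make and remove fructose 2,6-bisphosphate, its strongest activator. PFKFB3 (Entrez 5209, chr10:6144921-6326637) was at 41.5, 37.2 and 39 CPM in wt 2D, 61.4 and 63.7 in wt medium and 247, 244 and 219.7 in wt 3D. For PFKFB3, labelled KOs gave 39.6, 53.8 and 53.3 in 2D and 127, 125 and 123 in 3D, and KOd gave 24.2, 22 and 25.2 in 2D and 103, 95 and 118 in 3D. Every 3D library lay above every 2D library of the same genotype, and wt 3D lay above all other groups. The rise was 2.6 ± 0.11 (adjusted p = 3.4e-12) in wt, 1.35 ± 0.11 (adjusted p = 1.1e-08) in labelled KOs and 2.15 ± 0.11 (adjusted p = 2.8e-11) in KOd, and it was smaller than in wt by -1.24 ± 0.15 in labelled KOs (adjusted p = 8.8e-06) and by -0.45 ± 0.15 in KOd (adjusted p = 0.033), the latter call being lost when single libraries were left out. PFKFB4 was at 6.95, 8.31 and 12.2 CPM in wt 2D and 52.5, 47 and 14.6 in wt 3D, a rise of 2.06 ± 0.45 (adjusted p = 0.00068), with replicate C just above the 2D range. It rose by 2.02 ± 0.49 (adjusted p = 0.0015) in KOd, and in labelled KOs, where 2D libraries ran from 2.92 to 14.1, the change was 0.94 ± 0.44 (adjusted p = 0.07), or 1.76 (adjusted p = 0.00091) without replicate A of 2D. Of the 3 phosphofructokinase genes, PFKP fell in all 3 genotypes (-1.1 ± 0.16, -0.84 ± 0.16 and -0.65 ± 0.16, adjusted p = 9.4e-06, 0.00016 and 0.0014). PFKM was at 115, 93.6 and 84 CPM in KOd 2D and 199, 192 and 189.6 in KOd 3D, a rise of 0.99 ± 0.11 (adjusted p = 2.9e-07), beside -0.19 ± 0.11 (adjusted p = 0.12) in wt and 0.02 ± 0.11 (adjusted p = 0.89) in labelled KOs. PFKP made up 57.7% ± 0.96 of the 3 genes per length in wt 2D and 40% ± 1.3 in wt 3D, and in KOd the step was from 54.2% ± 0.61 to 31.3% ± 0.67. PFKM overlaps SENP1 on the other strand, and the strand setting of the counting is not given in the sources used here.

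Aldolase splits the 6-carbon sugar, ALDOA being the main form and ALDOC a minor one found mostly in brain. ALDOC (Entrez 230, chr17:28573120-28576895) was at 7.06, 6.56 and 10.4 CPM in wt 2D, 35.2 and 40.0 in wt medium and 18.1, 18 and 35.6 in wt 3D. Both wt medium libraries and all wt 3D libraries lay above wt 2D, and wt 3D replicate C reached the level of the medium libraries. In labelled KOs it was at 0.812, 0.537 and 0.454 in 2D and 2.06, 1.88 and 1.92 in 3D, and in KOd at 0.515, 0.593 and 0.414 in 2D and 14.5, 15.9 and 9.42 in 3D. Both pools were under 1 CPM in 2D, and in 3D the KOd libraries reached or passed the wt 2D range while those labelled KOs stayed below it. The rise with 3D was 1.58 ± 0.26 (adjusted p = 3.8e-05) in wt, 1.68 ± 0.33 (adjusted p = 0.00029) in labelled KOs and 4.7 ± 0.34 (adjusted p = 2.1e-09) in KOd, and the KOd rise exceeded that of wt by 3.12 ± 0.43 (adjusted p = 3.9e-05). Its share of ALDOA and ALDOC per length was 1.01% ± 0.24 in wt 2D, 4.18% ± 0.61 in wt 3D, 0.0695% ± 0.03 in labelled KOs 2D and 2.43% ± 0.72 in KOd 3D. ALDOA changed by -0.56 ± 0.13 (adjusted p = 0.0014) in wt, -0.53 ± 0.13 (adjusted p = 0.0018) in labelled KOs and 0.16 ± 0.13 (adjusted p = 0.28) in KOd, and it overlaps a locus without a gene name on its own strand.

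The enzymes from triosephosphate isomerase to enolase fell together. TPI1, GAPDH, PGK1, PGAM1 and ENO1 fell in wt by -1.02 ± 0.11, -0.43 ± 0.11, -1.13 ± 0.09, -1.11 ± 0.14 and -0.77 ± 0.10 and in labelled KOs by -0.93 ± 0.11, -1.01 ± 0.11, -0.80 ± 0.09, -1.22 ± 0.13 and -0.96 ± 0.10. In KOd the same 5 fell by -0.51 ± 0.11, -0.30 ± 0.11, -0.33 ± 0.09, -0.43 ± 0.13 and -0.26 ± 0.10. The largest of these 15 adjusted p-values was 0.035, for ENO1 in KOd, and the KOd calls for GAPDH, ENO1 and, earlier in the pathway, GPI were lost when single libraries were left out. The falls were smaller in KOd than in wt for TPI1, PGK1, PGAM1 and ENO1, by 0.51 ± 0.15, 0.80 ± 0.13, 0.68 ± 0.19 and 0.51 ± 0.15 (adjusted p = 0.016, 0.00014, 0.012 and 0.013). For GAPDH in KOd the difference did not pass (0.13 ± 0.16, adjusted p = 0.59). PGAM1 may share reads with PGAM4, a near-identical copy listed at a mean of 127 CPM in wt 2D beside 142, 146 and 154 for PGAM1, so the split between them is uncertain, and RefSeq names 65 pseudogenes of GAPDH.

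ENO2, the neuronal enolase and a HIF target, went its own way. ENO2 (Entrez 2026, chr12:6914580-6923697) was at 45.6, 42.3 and 44.5 CPM in wt 2D and 20.0, 18.9 and 27.4 in wt 3D. For ENO2, labelled KOs gave 31.3, 44.8 and 36.9 in 2D and 88.3, 86.2 and 87.1 in 3D, and KOd gave 18.7, 15.1 and 13.5 in 2D and 37.1, 36.6 and 22.7 in 3D. The 2D and 3D libraries did not overlap in any genotype, and the level fell in wt and rose in both pools. The changes were -1.0 ± 0.18 (adjusted p = 9.3e-05) in wt, 1.21 ± 0.17 (adjusted p = 1e-05) in labelled KOs and 1.03 ± 0.18 (adjusted p = 7.3e-05) in KOd. The pools differed from wt in this change by 2.21 ± 0.25 (adjusted p = 4.3e-06) and 2.03 ± 0.25 (adjusted p = 1.5e-05), labelled KOs first.

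At the end of the pathway PKM makes pyruvate, LDHA and LDHB interconvert pyruvate and lactate, SLC16A3 (MCT4) exports lactate, SLC16A1 (MCT1) carries it both ways, and PDK1 switches off pyruvate dehydrogenase. LDHA (Entrez 3939, chr11:18394563-18408425) was at 2262, 2119.8 and 2305 CPM in wt 2D, 1609.6 and 1532 in wt medium and 1006, 1079 and 957 in wt 3D. For LDHA, labelled KOs gave 969, 1671 and 1698 in 2D and 962, 998 and 925 in 3D, and KOd gave 1208, 1088 and 1138 in 2D and 947, 1041 and 1093 in 3D. The wt groups did not overlap, while in labelled KOs the 2D replicate A already lay at the 3D level and in KOd the 2 cultures overlapped. The change was -1.14 ± 0.15 (adjusted p = 3.1e-06) in wt, -0.59 ± 0.15 (adjusted p = 0.0018) in labelled KOs and -0.16 ± 0.15 (adjusted p = 0.35) in KOd, and KOd differed from wt by 0.98 ± 0.21 (adjusted p = 0.0017). LDHB fell by -0.63 ± 0.09 in wt and -0.78 ± 0.09 in labelled KOs (adjusted p = 1.1e-05 and 1.1e-06), and its change in KOd was -0.12 ± 0.09 (adjusted p = 0.28). LDHB made up 41.1% ± 0.68 of the 2 genes per length in wt 2D, 49.8% ± 1.3 in wt 3D and 54.6% ± 0.93 in wt medium. In labelled KOs it made up 60.8% ± 4.1 in 2D and 57% ± 0.67 in 3D, and in KOd 49.2% ± 0.5 and 49.9% ± 0.67.

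SLC16A3 was at 91.9, 103 and 106 CPM in wt 2D and 34.4, 33.3 and 60.7 in wt 3D, and fell by -1.23 ± 0.19 (adjusted p = 2.6e-05) there. In labelled KOs it fell by -0.77 ± 0.19 (adjusted p = 0.0018), and in KOd its change was -0.06 ± 0.19 (adjusted p = 0.79), which differed from wt by 1.17 ± 0.27 (adjusted p = 0.0034). SLC16A1 fell in labelled KOs (-0.63 ± 0.08, adjusted p = 1.7e-06), beside -0.05 ± 0.08 (adjusted p = 0.6) in wt and -0.09 ± 0.08 (adjusted p = 0.33) in KOd. PDK1 (Entrez 5163, chr2:172555373-172724312) was at 56.6, 54.9 and 55 CPM in wt 2D and 18.6, 19.2 and 20.1 in wt 3D. For PDK1, labelled KOs gave 26.5, 32.8 and 27.1 in 2D and 43.3, 44.3 and 42.9 in 3D, and KOd gave 47.2, 48.1 and 55.9 in 2D and 26.3, 25.3 and 22.9 in 3D. The 2D and 3D libraries of a genotype did not overlap, and the level fell in wt and KOd and rose in labelled KOs. The changes were -1.52 ± 0.09 (adjusted p = 2.3e-10), 0.60 ± 0.09 (adjusted p = 1.4e-05) and -1.02 ± 0.09 (adjusted p = 2.2e-08) in wt, labelled KOs and KOd, and labelled KOs differed from wt by 2.12 ± 0.13 (adjusted p = 7.6e-09). PKM fell in wt and labelled KOs and rose in KOd, by -0.25 ± 0.10, -0.54 ± 0.10 and 0.26 ± 0.10 (adjusted p = 0.036, 0.00012 and 0.024), and the wt and KOd calls were lost when single libraries were left out.

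Among the other HIF targets, CA9, the membrane carbonic anhydrase that acidifies the surroundings of hypoxic cells, changed most in wt and in KOd. CA9 (Entrez 768, chr9:35673928-35681159) was at 85.2, 85.8 and 79.4 CPM in wt 2D and 2.36, 1.61 and 27.3 in wt 3D. All wt 3D libraries lay below all wt 2D libraries, with replicate C of wt 3D far above replicates A and B. It was at 6.26, 27.3 and 14 in labelled KOs 2D, 2.06, 1.68 and 2.52 in labelled KOs 3D, 12.9, 12.9 and 8.04 in KOd 2D and 0.244, 0.288 and 1.19 in KOd 3D. The change was -3.01 ± 0.71 (adjusted p = 0.0013) in wt, -2.92 ± 0.77 (adjusted p = 0.0028) in labelled KOs and -4.33 ± 0.95 (adjusted p = 0.00065) in KOd. Without wt 3D replicate C the wt value was -5.39, and without KOd 3D replicate C the KOd value was also -5.39. Without labelled KOs 2D replicate B the value in labelled KOs was -2.27. The differences of the pools from wt in this change did not pass (0.09 ± 1.03, adjusted p = 0.96 in labelled KOs and -1.32 ± 1.22, adjusted p = 0.45 in KOd), and both rest on wt 3D replicate C. Without it the difference was 2.41 (adjusted p = 0.0098) in labelled KOs and 1.05 (adjusted p = 0.37) in KOd. Leaving out all 3 odd libraries gave 2.1 (adjusted p = 2e-04) and -0.0013 (adjusted p = 1).

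VEGFA and ADM encode secreted factors that act on vessels, and ANGPTL4 a secreted inhibitor of lipoprotein lipase. VEGFA was at 82.9, 88.6 and 77.1 CPM in wt 2D, 183 and 187 in wt medium and 367, 372 and 285 in wt 3D. These groups did not overlap, and medium alone stood between 2D and 3D. In labelled KOs VEGFA was at 148, 226 and 158 in 2D and 281, 305 and 318 in 3D, and in KOd at 229, 247 and 294 in 2D and 266, 261 and 270.0 in 3D. The change with 3D was 2.04 ± 0.14 (adjusted p = 1.6e-09) in wt, 0.76 ± 0.14 (adjusted p = 0.00011) in labelled KOs and 0.05 ± 0.14 (adjusted p = 0.76) in KOd, smaller than in wt by -1.28 ± 0.19 and -1.99 ± 0.20 (adjusted p = 9.1e-05 and 1.3e-06).

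ADM, which encodes adrenomedullin, was at 8.97, 10.4 and 13.8 CPM in wt 2D and 8.3, 9.17 and 8.96 in wt 3D. For ADM, labelled KOs gave 4.06, 5.42 and 5.85 in 2D and 18, 16.9 and 19.7 in 3D, and KOd gave 5.49, 5.79 and 4.93 in 2D and 8.37, 9.39 and 7.74 in 3D. The wt groups overlapped and the groups of each pool did not, with labelled KOs 3D the highest of the series. The change was -0.33 ± 0.15 (adjusted p = 0.075) in wt, 1.83 ± 0.16 (adjusted p = 3e-08) in labelled KOs and 0.65 ± 0.16 (adjusted p = 0.0015) in KOd, and labelled KOs differed from wt by 2.16 ± 0.22 (adjusted p = 1.7e-06). ANGPTL4 was at 8.6, 10.2 and 10.1 CPM in wt 2D, 26.4 and 23.5 in wt medium, 3.26, 2.52 and 2.13 in wt 3D and 5.3, 34.5 and 54.4 in labelled KOs 2D. All other groups held 1.93 to 2.78 CPM in each library. It fell by -1.87 ± 0.49 (adjusted p = 0.0031) in wt and by -3.6 ± 0.50 (adjusted p = 6.8e-06) in labelled KOs, with no overlap in either, and the change in KOd was 0.45 ± 0.53 (adjusted p = 0.47). Without labelled KOs 2D replicate C the value in labelled KOs was -2.94, and the wt call did not pass with limma-voom.

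BNIP3 and BNIP3L are mitophagy receptors, and NDRG1 and ANKRD37 are widely used hypoxia markers. BNIP3 (Entrez 664, chr10:131967684-131981923) was at 93.3, 95.7 and 98 CPM in wt 2D, 44.6 and 44.3 in wt medium and 19.8, 22.7 and 28.9 in wt 3D. For BNIP3, labelled KOs gave 49.4, 66.4 and 66.1 in 2D and 31.9, 30.7 and 30.6 in 3D, and KOd gave 49.6, 48.2 and 50.5 in 2D and 30.3, 33.2 and 32.2 in 3D. The wt 2D libraries were the highest of the series, and each 3D group lay below its 2D group without overlap. The fall was -2.01 ± 0.12 (adjusted p = 2.5e-10) in wt, -0.97 ± 0.12 (adjusted p = 1.5e-06) in labelled KOs and -0.63 ± 0.12 (adjusted p = 0.00013) in KOd, and both pools differed from wt in it, by 1.04 ± 0.16 and 1.38 ± 0.17 (adjusted p = 0.00013 and 1e-05). RefSeq names 46 pseudogenes of BNIP3, and its gene model overlaps PPP2R2D on the other strand, so reads may be shared.

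The related BNIP3L was at 100.4, 99.97 and 103 CPM in wt 2D and 64.2, 69.3 and 127 in wt 3D and did not pass in any genotype (-0.22 ± 0.21, 0.16 ± 0.21 and 0.09 ± 0.21, adjusted p = 0.37, 0.51 and 0.7). BNIP3L passed with the 3 odd libraries left out in wt (-0.60, adjusted p = 8.6e-07) and in labelled KOs (0.46, adjusted p = 1.9e-05). NDRG1 was at 162, 163 and 163 CPM in wt 2D and 67, 67.2 and 159 in wt 3D, a fall of -0.73 ± 0.26 (adjusted p = 0.019). In both genes replicates A and B of wt 3D lay well below wt 2D, while replicate C lay above it for BNIP3L and just below it for NDRG1, and the NDRG1 call was lost without replicate A or B (-0.52 and -0.53). ANKRD37, which overlaps UFSP2 and LRP2BP, fell in KOd (-0.84 ± 0.20, adjusted p = 0.0013), beside -0.34 ± 0.20 (adjusted p = 0.14) in wt and 0.14 ± 0.21 (adjusted p = 0.57) in labelled KOs, and the differences from wt did not pass (adjusted p = 0.2 and 0.2).

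The EGLN enzymes, KDM3A and the P4HA subunits use oxygen as a substrate, the first to hydroxylate HIF, the second to demethylate histone H3 and the third to hydroxylate collagen. EGLN1 fell in all 3 genotypes, by -0.67 ± 0.09, -0.84 ± 0.09 and -0.61 ± 0.09 (adjusted p = 2.4e-06, 2.2e-07 and 5.9e-06). EGLN3, the most HIF-responsive of them, was at 44.1, 41.4 and 42.5 CPM in wt 2D and 42.2, 40.2 and 67.8 in wt 3D. For EGLN3, labelled KOs gave 24.9, 37.7 and 28.4 in 2D and 8.75, 8.61 and 8.22 in 3D, and KOd gave 11.9, 11.3 and 8.66 in 2D and 15.7, 18.8 and 24.2 in 3D. The groups overlapped in wt and not in the pools, where labelled KOs fell and KOd rose. The change was 0.23 ± 0.19 (adjusted p = 0.3), -1.83 ± 0.20 (adjusted p = 4.9e-07) and 0.88 ± 0.20 (adjusted p = 0.00081), and labelled KOs differed from wt by -2.06 ± 0.27 (adjusted p = 2.5e-05). P4HA2 rose in wt and fell in labelled KOs (0.75 ± 0.12, adjusted p = 4.2e-05 and -0.47 ± 0.12, adjusted p = 0.0028), with 0.08 ± 0.12 (adjusted p = 0.59) in KOd, and the fall in labelled KOs did not pass with library totals as the only scaling. P4HA1 did not pass in any genotype (0.22 ± 0.16, -0.10 ± 0.16 and -0.05 ± 0.16), its wt 3D replicate C standing at 149.6 CPM beside 89.3 and 96 in A and B. KDM3A rose in labelled KOs (0.76 ± 0.13, adjusted p = 6.4e-05) and in KOd (0.32 ± 0.13, adjusted p = 0.037), beside -0.08 ± 0.13 (adjusted p = 0.6) in wt, and the KOd call was lost when single libraries were left out.

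The HIF alpha subunits themselves changed by less than 1 log2 unit with culture. HIF1A (Entrez 3091, chr14:61695513-61748258) was at 1049, 1033 and 1021 CPM in wt 2D and 646, 689.6 and 632 in wt 3D. For HIF1A, labelled KOs gave 820.5, 822 and 795 in 2D and 894, 892 and 857 in 3D, and KOd gave 941, 887 and 912 in 2D and 804, 796 and 851 in 3D. In wt the 3D libraries lay below all others of the series, and the change was -0.66 ± 0.07 (adjusted p = 1.6e-07), beside 0.12 ± 0.07 (adjusted p = 0.13) in labelled KOs and -0.16 ± 0.07 (adjusted p = 0.039) in KOd. The KOd value did not pass with library totals as the only scaling or when single libraries were left out. EPAS1 was at 160.3, 154 and 180.4 CPM in wt 2D and 121, 114 and 128 in wt 3D. For EPAS1, labelled KOs gave 201, 327 and 344 in 2D and 359.9, 362 and 347 in 3D, and KOd gave 123, 116 and 122 in 2D and 164, 157 and 175 in 3D. It fell in wt by -0.45 ± 0.14 (adjusted p = 0.0081) and rose in KOd by 0.46 ± 0.14 (adjusted p = 0.0061), and the change in labelled KOs was 0.29 ± 0.13 (adjusted p = 0.063). Both subunits differed from wt in their culture change in both pools, HIF1A by 0.77 ± 0.09 and 0.50 ± 0.09 and EPAS1 by 0.74 ± 0.19 and 0.91 ± 0.19 (adjusted p = 9.3e-06, 0.00069, 0.0057 and 0.0017). The antisense HIF1A-AS3 covers much of HIF1A, and reads of the 2 cannot be told apart where the strand was not used.

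**Figure D3:**
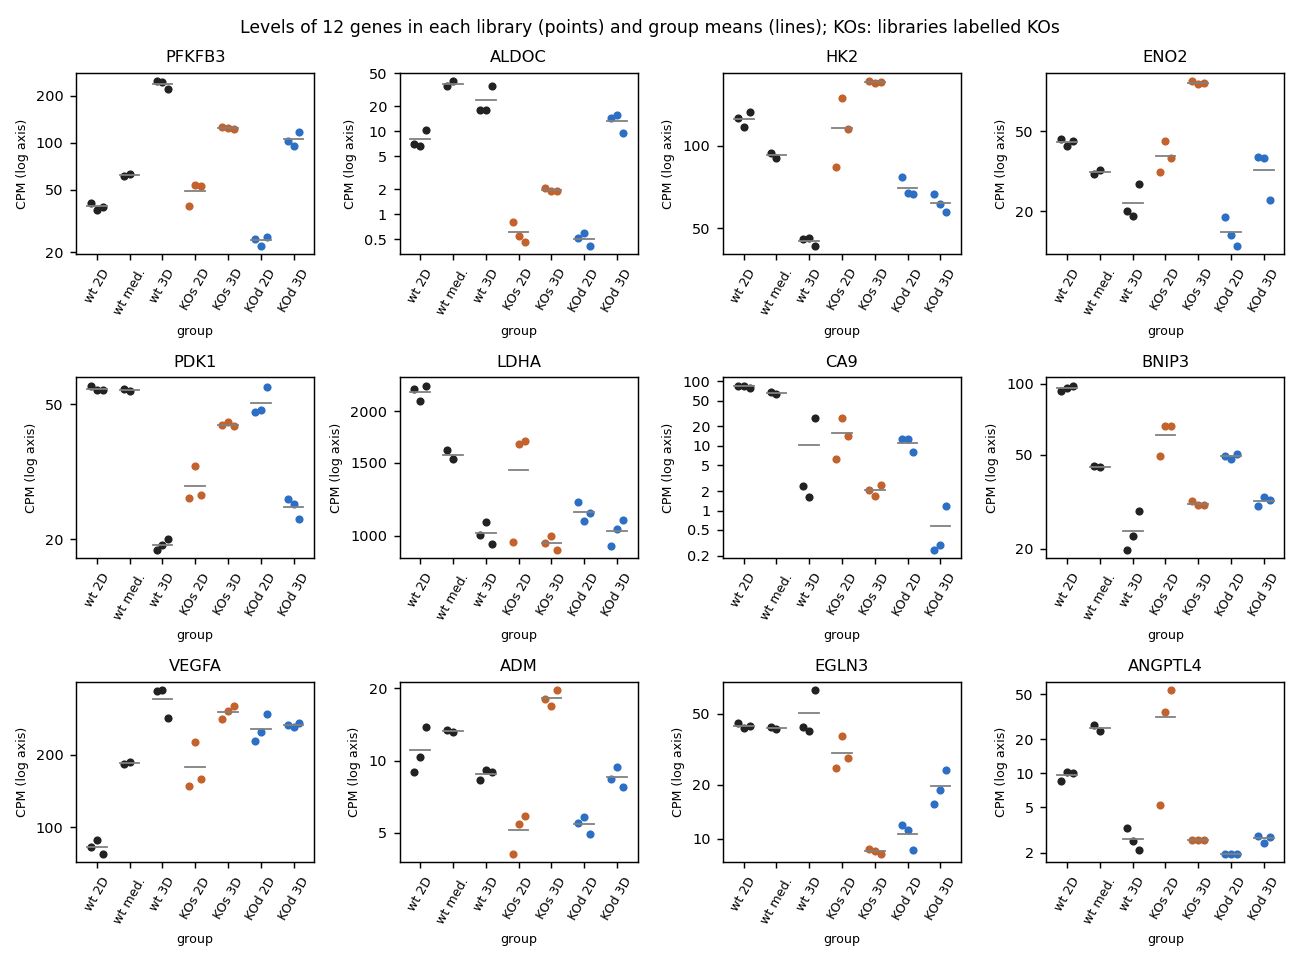
CPM of 12 genes (log axis, a scale of its own for each gene) in each library (points) with group means (grey lines), by group on the x axis, in black for wt, orange for labelled KOs and blue for KOd. PFKFB3 and ALDOC are higher in 3D than in 2D in each genotype and CA9 and BNIP3 lower, HK2, ENO2 and PDK1 are higher in labelled KOs 3D than in wt 3D, and CA9 in wt 3D and ANGPTL4 in labelled KOs 2D each have 1 library far from the other 2.

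The difference between the culture changes was tested over all genes as an interaction. For KOd against wt, 16 glycolysis genes had a higher and 2 a lower value, with a median difference of 0.51, and 5 HIF genes were higher and 2 lower, beside 29.1% of all genes, of which 14.4% were higher and 14.7% lower, with a median of 0.01. The glycolysis share was thus 75% and lay above the background, with most calls upward. This interaction is built from the same libraries as KOd against wt in 2D, where the glycolysis median was -0.67, and in 3D, where it was 0.02. It is therefore not a finding separate from those comparisons or from the 3D against 2D changes. For labelled KOs against wt, 5 glycolysis genes were higher and 4 lower (median 0.09), and 6 HIF genes were higher and 3 lower (median 0.38), beside 36.8% of all genes (17.9% higher, 19% lower). The split of 11 higher to 7 lower became 9 to 9 with DESeq2 and 15 to 7 with library totals as the only scaling, and leaving out the 3 odd libraries gave 28 calls, 16 higher and 12 lower. The share of all genes that passed in these settings is not given here. Both interactions share the wt libraries, so their values are not independent of each other.

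Sphere medium without suspension was tested in attached wt cells. Here 6 glycolysis genes rose and 7 fell (median -0.08), and 2 HIF genes rose and 5 fell (median -0.33), beside 32% of all genes (15.6% higher, 16.4% lower). With 2 medium libraries the counts were thin: of the 39, 20 passed with both and fewer with either left out. Such a fit holds only 1 medium library, and the share of all genes that passed in it is not given here. The changes against 2D were 2.23 ± 0.28 (adjusted p = 9.8e-06) for ALDOC, -1.47 ± 0.14 (adjusted p = 4.3e-07) for SLC2A1, 0.67 ± 0.12 (adjusted p = 0.00031) for PFKFB3, 1.16 ± 0.15 (adjusted p = 1.8e-05) for VEGFA and -1.11 ± 0.13 (adjusted p = 7.5e-06) for BNIP3. PFKM was at 269.7 and 271 CPM in wt medium beside 183, 169 and 149.8 in wt 2D, a rise of 0.69 ± 0.12 (adjusted p = 0.00021), and ANGPTL4 rose by 1.37 ± 0.49 (adjusted p = 0.041), a call that was lost when either medium library, or any of several others, was left out. CA9 was at 68.2 and 64.8 CPM in medium (-0.33 ± 0.73, adjusted p = 0.78) and PDK1 at 55.2 and 54.5 (-0.02 ± 0.10, adjusted p = 0.92), and neither passed. The 95% interval of the log2 change ran from -1.91 to 1.25 for CA9 and from -0.23 to 0.19 for PDK1.

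Set against wt medium, wt 3D had 3 glycolysis genes higher and 16 lower (median -0.61), and 5 HIF genes higher and 7 lower (median -0.03), beside 62.8% of all genes (32.8% higher, 30% lower). This comparison shares libraries with both others in wt. SLC2A1 was higher in 3D than in medium by 1.96 ± 0.14 (adjusted p = 2.7e-09) and PFKFB3 by 1.92 ± 0.13 (adjusted p = 9.8e-10), and SLC16A3, at 156 and 157 CPM in medium, was lower by -1.87 ± 0.21 (adjusted p = 6.4e-07). ANGPTL4 was lower in 3D than in medium by -3.24 ± 0.53 (adjusted p = 4.1e-05) and CA9 by -2.68 ± 0.75 (adjusted p = 0.0047), or -5.05 without wt 3D replicate C. P4HA2, at 48.5 and 55.3 CPM in medium and 131, 128 and 182 in 3D, was higher by 1.5 ± 0.15 (adjusted p = 1.1e-07). ALDOC differed the other way, lower in 3D than in medium by -0.65 ± 0.27 (adjusted p = 0.043), a call lost with DESeq2 and without several single libraries.

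The pools were then set against wt in the same culture. In 2D, KOd had 19 of 24 glycolysis genes lower and 2 higher (median -0.67), and 11 of 15 HIF genes lower and 1 higher (median -0.64). Over all genes 44.6% passed, 22.1% higher and 22.5% lower, with a median of 0.01, so the 84.6% of the 39 that passed lay above the background and nearly all were lower. In labelled KOs 2D 10 glycolysis genes were higher and 4 lower (median 0.18), and 4 HIF genes were higher and 10 lower (median -0.52), beside 53.2% of all genes (27.7% higher, 25.5% lower). These 2 comparisons share the wt libraries, and labelled KOs also differ from wt in depth, whose part was not tested, and in ribosomal RNA. Without the ribosomal RNA genes 1 of the 337 results that passed over all comparisons was lost, PFKM in labelled KOs 2D against wt (0.24, adjusted p = 0.067). That fit drops only the counts of these genes. It cannot test what else differs between libraries with more and less ribosomal RNA. In KOd 2D the largest glycolysis differences without overlap of libraries were ALDOC at -3.97 ± 0.34 (adjusted p = 7e-08), PFKFB4 at -1.92 ± 0.49 (adjusted p = 0.004), ENO2 at -1.48 ± 0.18 (adjusted p = 3.5e-06) and LDHA at -0.96 ± 0.15 (adjusted p = 3.9e-05). PFKFB4 was at 2.44, 3 and 1.83 CPM in KOd 2D, and the other 3 are given by library above. In labelled KOs 2D they were ALDOC at -3.71 ± 0.32 (adjusted p = 5.4e-08), PDK1 at -0.95 ± 0.09 (adjusted p = 1.3e-07), SLC16A3 at 0.65 ± 0.19 (adjusted p = 0.0078) and LDHA at -0.62 ± 0.15 (adjusted p = 0.0016). SLC16A3 was at 119, 185 and 167 CPM there, all above wt, while HK2 (-0.11 ± 0.14, adjusted p = 0.5) and ENO2 (-0.23 ± 0.17, adjusted p = 0.28) did not pass.

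Of the HIF targets in 2D, CA9 was lower in both pools, by -2.4 ± 0.69 (adjusted p = 0.0072) in labelled KOs and -2.88 ± 0.71 (adjusted p = 0.0029) in KOd, the former being -3.05 without labelled KOs 2D replicate B. VEGFA was higher in both, by 1.1 ± 0.14 (adjusted p = 4.1e-06) and 1.63 ± 0.14 (adjusted p = 7.2e-08), and ADM lower in both, by -1.11 ± 0.16 (adjusted p = 1.4e-05) and -1.03 ± 0.16 (adjusted p = 4.4e-05). ANGPTL4 differed in direction: it was higher in labelled KOs by 1.7 ± 0.46 (adjusted p = 0.0044), where replicate A at 5.3 CPM lay below wt, with a value of 1.04 without replicate C and no call with limma-voom, and lower in KOd by -2.31 ± 0.51 (adjusted p = 0.0013). EGLN3 was lower by -2.01 ± 0.20 (adjusted p = 4e-07) in KOd and -0.49 ± 0.19 (adjusted p = 0.036) in labelled KOs, where the call was lost when single libraries were left out. ANKRD37, at 1.05, 1.4 and 1.08 CPM in labelled KOs 2D and 3.11, 2.79 and 3.69 in wt, was lower there by -1.44 ± 0.20 (adjusted p = 1.5e-05), and KDM3A, at 23.1, 20.1 and 18.5 beside 41.4, 39.4 and 54.8, by -1.14 ± 0.13 (adjusted p = 1.5e-06). P4HA2 was higher in labelled KOs (0.54 ± 0.12, adjusted p = 0.0014) and lower in KOd (-0.64 ± 0.12, adjusted p = 0.00042), and EPAS1 likewise (0.82 ± 0.14, adjusted p = 7.3e-05 and -0.45 ± 0.14, adjusted p = 0.011), its KOd call being lost without wt 2D replicate C. HIF1A was lower by -0.35 ± 0.07 and -0.18 ± 0.07 (adjusted p = 0.00026 and 0.035), the KOd call being lost with library totals as the only scaling and when single libraries were left out.

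**Figure D4:**
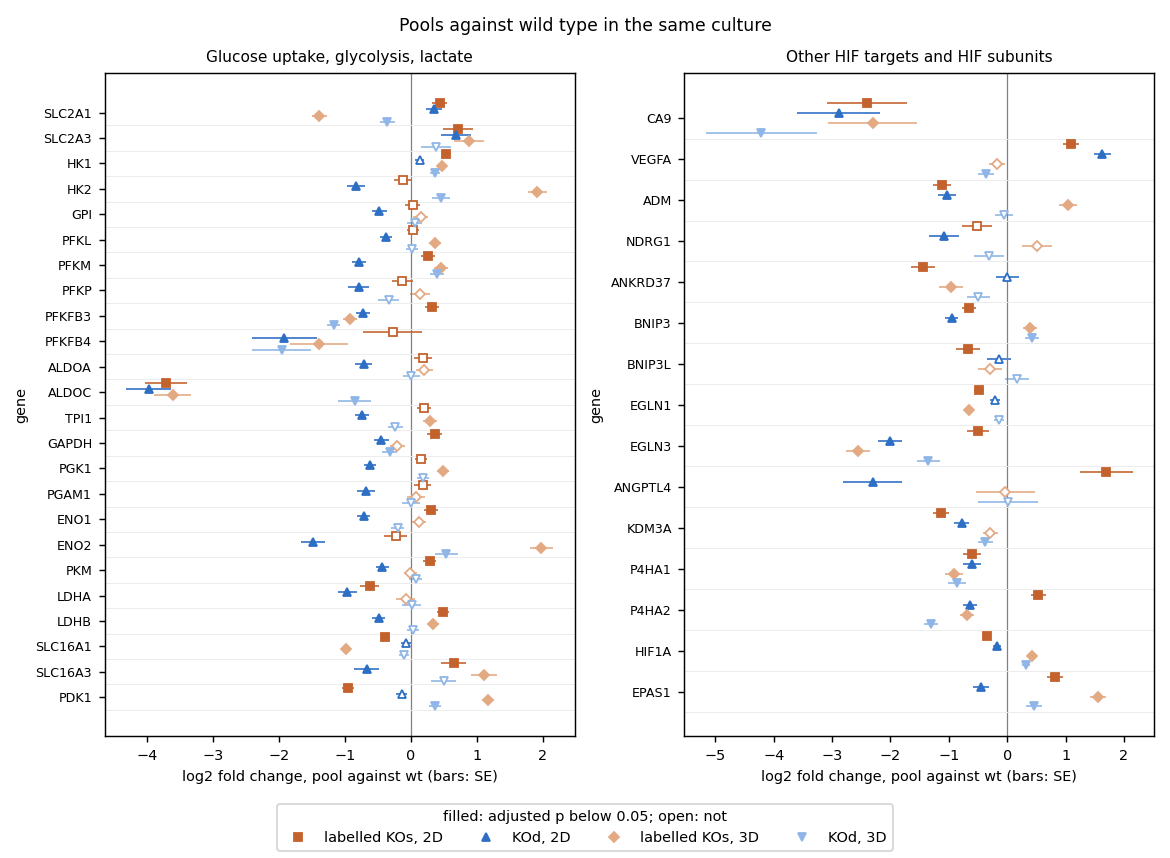
Log2 fold change of each pool against wt in the same culture (x axis) for each gene (y axis), with bars for the SE and filled symbols for adjusted p under 0.05. In 2D most glycolysis genes of KOd (dark triangles) lie left of 0, in 3D (pale triangles) they lie on both sides of 0, and HK2, ENO2 and PDK1 of labelled KOs in 3D (pale diamonds) lie at 1.92, 1.98 and 1.17.

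In 3D the difference between KOd and wt was smaller in count: 5 glycolysis genes were higher and 5 lower (median 0.02), and 3 HIF genes were higher and 6 lower (median -0.30), beside 34% of all genes (16.5% higher, 17.5% lower). The split of 8 higher to 11 lower over the 39 became 11 to 7 with library totals as the only scaling, which moved the median of all genes by 0.16. PFKFB4 was lower by -1.96 ± 0.45 (adjusted p = 0.0023), PFKFB3 by -1.17 ± 0.11 (adjusted p = 1.4e-07) and ALDOC by -0.85 ± 0.25 (adjusted p = 0.013), the last of which did not pass without wt 3D replicate C (-0.43), KOd 3D replicate C (-0.65) or all 3 libraries that stand apart (-0.25). HK2 was higher by 0.46 ± 0.14 (adjusted p = 0.016) and ENO2 by 0.54 ± 0.18 (adjusted p = 0.024), calls that were lost without KOd 3D replicate A and, for ENO2, without 3 other libraries. CA9 was lower by -4.21 ± 0.95 (adjusted p = 0.0022), or -1.83 without wt 3D replicate C and -2.88 without the 3 libraries, and did not pass with limma-voom. EGLN3 was lower by -1.35 ± 0.19 (adjusted p = 3.1e-05), P4HA2 by -1.31 ± 0.12 (adjusted p = 2.7e-07) and P4HA1 by -0.86 ± 0.16 (adjusted p = 0.00033). Replicates with the same letter deviated together in wt 3D and KOd 3D, and with the letter as a block in these 2 groups 19 genes passed, 9 higher and 10 lower, with ALDOC (-0.78), GAPDH (-0.29) and ENO2 (0.54) no longer among them.

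In labelled KOs 3D, 11 glycolysis genes were higher than in wt 3D and 5 lower (median 0.18), and 4 HIF genes were higher and 6 lower (median -0.29), beside 56.3% of all genes (27.8% higher, 28.5% lower). ENO2 was higher by 1.98 ± 0.18 (adjusted p = 4.9e-08), HK2 by 1.92 ± 0.14 (adjusted p = 4e-09), PDK1 by 1.17 ± 0.09 (adjusted p = 6.1e-09) and SLC16A3 by 1.11 ± 0.19 (adjusted p = 8.9e-05). In all 4 the 3 libraries labelled KOs lay above the 3 of wt. ALDOC was lower by -3.61 ± 0.28 (adjusted p = 8e-09), SLC2A1 by -1.39 ± 0.12 (adjusted p = 2.2e-08) and SLC16A1 by -0.98 ± 0.08 (adjusted p = 8.9e-09). Of the HIF genes, EPAS1 was higher by 1.56 ± 0.14 (adjusted p = 3.7e-08) and ADM by 1.05 ± 0.15 (adjusted p = 1.5e-05), and EGLN3 was lower by -2.55 ± 0.20 (adjusted p = 9.7e-09) and ANKRD37 by -0.96 ± 0.20 (adjusted p = 0.00056). CA9 was listed as lower by -2.31 ± 0.77 (adjusted p = 0.016), but without wt 3D replicate C the value was 0.06 and without all 3 libraries that stand apart 0.08, so this direction rests on 1 wt library, and the call was also lost with limma-voom.

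The 2 pools were compared with each other as well. In 2D, KOd had 18 glycolysis genes lower than labelled KOs and 2 higher (median -0.75), and 5 HIF genes lower and 6 higher, beside 59.6% of all genes (28.8% higher, 30.7% lower). ANGPTL4 was lower by -4.01 ± 0.52 (adjusted p = 3.4e-06), or -3.35 without labelled KOs 2D replicate C, SLC16A3 by -1.32 ± 0.19 (adjusted p = 1.2e-05), ENO2 by -1.25 ± 0.18 (adjusted p = 1e-05) and EPAS1 by -1.27 ± 0.14 (adjusted p = 3.7e-07), and ANKRD37 was higher by 1.45 ± 0.20 (adjusted p = 8.5e-06). In 3D, 10 glycolysis genes were lower and 3 higher (median -0.27), and 4 HIF genes were lower and 2 higher (median -0.08), beside 47.2% of all genes (23.9% higher, 23.3% lower). ALDOC was higher in KOd by 2.76 ± 0.28 (adjusted p = 3.8e-07), EGLN3 by 1.2 ± 0.20 (adjusted p = 9.1e-05) and SLC2A1 by 1.03 ± 0.12 (adjusted p = 1.5e-06), while HK2 was lower by -1.46 ± 0.14 (adjusted p = 2.2e-07) and ENO2 by -1.44 ± 0.18 (adjusted p = 3.5e-06). Here too depth and the share of ribosomal RNA set all libraries labelled KOs apart from KOd, and their part was not tested.

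The balance within several pairs of related genes differed between groups. SLC2A3 made up 16.1% ± 0.63 of SLC2A1 and SLC2A3 per length in wt 2D, 48.5% ± 1.5 in wt medium and 22.1% ± 3.2 in wt 3D. From 2D to 3D its share went from 19.4% ± 8.6 to 57.9% ± 0.87 in labelled KOs and from 19.5% ± 4.1 to 32.1% ± 7.2 in KOd. ENO2 made up 1.46% ± 0.03 of ENO1 and ENO2 in wt 2D and 1.25% ± 0.31 in wt 3D. From 2D to 3D its share went from 1.01% ± 0.12 to 4.37% ± 0.11 in labelled KOs and from 0.855% ± 0.12 to 2.07% ± 0.58 in KOd. SLC16A3 made up 41.1% ± 2.3 of the 2 lactate carriers in wt 2D, 53.6% ± 0.51 in wt medium and 23.1% ± 5.3 in wt 3D. From 2D to 3D its share went from 58.6% ± 3.3 to 56.6% ± 1.4 in labelled KOs and from 31.6% ± 1.1 to 31.8% ± 4.4 in KOd. EGLN3 made up 56.6% ± 3 of EGLN1 and EGLN3 in wt 2D and 70.2% ± 4.3 in wt 3D. From 2D to 3D its share went from 55.9% ± 5.2 to 39.3% ± 0.05 in labelled KOs and from 27.1% ± 3.3 to 51% ± 3.8 in KOd.

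Other genes of the same pathways were taken from wider lists, for which the share that passed is given in the order wt, labelled KOs and KOd, beside 63.7%, 65% and 66.4% of all genes. Of 13 tested partners and regulators of HIF, 5 rose and 6 fell in wt 3D against 2D, 3 rose and 5 fell in labelled KOs, and 4 rose and 5 fell in KOd (84.6%, 61.5% and 69.2%), so the pools lay near the share of all genes. VHL was lower in labelled KOs 2D than in wt 2D by -1.79 ± 0.15 (adjusted p = 3.9e-08) and rose there with 3D by 2.59 ± 0.15 (adjusted p = 3.1e-10), beside 0.81 ± 0.14 (adjusted p = 9.9e-05) in wt and 0.67 ± 0.14 (adjusted p = 0.00052) in KOd. CITED2, which competes with HIF for its coactivator, fell in wt 3D by -1.07 ± 0.15 (adjusted p = 8.1e-06) and with medium by -1.51 ± 0.18 (adjusted p = 5.4e-06). With 3D it also fell in labelled KOs by -0.45 ± 0.15 (adjusted p = 0.013) and in KOd by -0.51 ± 0.15 (adjusted p = 0.0064). Of 42 further HIF targets tested, 10 rose and 16 fell in wt, 11 rose and 12 fell in labelled KOs, and 17 rose and 16 fell in KOd (61.9%, 54.8% and 78.6%), near or below the share of all genes in wt and labelled KOs and above it in KOd. The transcription repressor BHLHE41 rose in each by 2.61 ± 0.15, 2.58 ± 0.15 and 2.58 ± 0.15 (adjusted p = 1.3e-10, 2.7e-10 and 1.3e-10). Against wt in 2D, 9 of the 42 were higher and 12 lower in labelled KOs (50%, beside 53.2% of all genes). In KOd 2D 10 were higher and 20 lower (71.4%, beside 44.6%). Among the lower genes were the collagen cross-linking enzymes LOX and PLOD2. They differed from wt in 2D by -5.0 ± 0.38 and -1.77 ± 0.09 in labelled KOs and by -2.47 ± 0.32 and -0.52 ± 0.09 in KOd. All 4 differences passed (adjusted p = 9.9e-09, 1e-10, 6.7e-06 and 0.00013).

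Of 25 other glycolysis genes tested, 1 rose and 7 fell in wt 3D, 8 rose and 9 fell in labelled KOs, and 11 rose and 8 fell in KOd. The shares were 32%, 68% and 76%, beside 63.7%, 65% and 66.4% of all genes, so that of wt lay below. Of 8 pentose phosphate genes, 5 rose and 3 fell in wt, 5 rose and 3 fell in labelled KOs, and 4 rose and 1 fell in KOd (100%, 100% and 62.5%). TKT, the transketolase that links that branch back to glycolysis, rose by 1.04 ± 0.10 (adjusted p = 6.8e-08) in wt, 0.37 ± 0.10 (adjusted p = 0.0029) in labelled KOs and 1.43 ± 0.10 (adjusted p = 1.2e-09) in KOd. Of 14 genes of pyruvate entry into mitochondria, 4 rose and 6 fell in wt, 6 rose and 5 fell in labelled KOs, and 6 rose and 4 fell in KOd (71.4%, 78.6% and 71.4%). DLAT, the acetyltransferase of pyruvate dehydrogenase, fell in wt by -0.84 ± 0.09 (adjusted p = 4.3e-07) and in labelled KOs by -0.48 ± 0.09 (adjusted p = 0.00018). Its change in KOd was -0.06 ± 0.09 (adjusted p = 0.56). PDK2, a relative of PDK1, rose by 1.2 ± 0.23 (adjusted p = 0.00022) in wt, 1.3 ± 0.24 (adjusted p = 0.00014) in labelled KOs and 2.22 ± 0.24 (adjusted p = 3e-07) in KOd.

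The summed level of 6 leukocyte markers was 1.61 to 8.16 CPM. The 6 endothelial markers summed to 8.05 to 10.9 CPM in wt 2D, 50.8 to 73.4 in wt 3D, 8.83 to 43.2 in labelled KOs 2D, 32.3 to 37.9 in labelled KOs 3D, 8.07 to 9.84 in KOd 2D and 91.3 to 97.9 in KOd 3D, the 2 groups of labelled KOs overlapping. PECAM1 made up most of the 3D sums, at 59.4 ± 12.1 in wt 3D and 93 ± 3.79 in KOd 3D beside 2.66 ± 0.708 in wt 2D. The mean of KDR was lower in 3D, from 5.81 ± 2.67 in wt 2D to 0.022 ± 0.019 in wt 3D, 12.5 ± 14.4 to 0.171 ± 0.0704 in labelled KOs and 2.77 ± 0.742 to 0.135 ± 0.118 in KOd, while CDH5 was at or under 0.105 in every library. The sum of 3 muscle markers, nearly all ACTA1, was 22 to 143 CPM, and that of 3 adipocyte markers at most 3.45. PECAM1, KDR and ACTA1 move with the groups compared, and their part in the results was not tested.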

How the data were processed

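RNA was sequenced from 20 libraries of SUM159PT cells in 7 groups. The deposited table holds whole-number counts of reads per gene by Entrez ID, made by the authors with STAR on hg38 per the submitters' processing notes, while the counting tool, its strand setting and the annotation are not given in the sources used here. Reads of overlapping genes, pseudogenes and near-identical copies may therefore be shared. Symbols were matched to 27740 of 27864 IDs.

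Genes with low counts were removed with edgeR's filterByExpr, which left 16323, and libraries were scaled by TMM. One model with a coefficient for each group was fitted by edgeR's quasi-likelihood method (version 4.0.16, R 4.3.3, 13 residual degrees of freedom), and 13 contrasts were tested with Benjamini-Hochberg adjustment over all genes tested at 0.05. All groups entered the fit so that they share 1 estimate of the spread. Each SE of a log2 fold change was derived as its absolute value divided by the square root of the F statistic. Levels are CPM, counts scaled to a common library total. Libraries held 26396964 to 43744817 counts, and the precision of a level is given as the SD between libraries. The steps were tested on simulated counts.

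Alternatives were DESeq2 1.42.0, limma-voom (limma 3.58.1), other scalings and filters, a fit to the compared groups alone, a replicate block, a threshold of 0.01, removal of ribosomal RNA genes and each library left out. The fit without the 3 libraries that stand apart, and the block in wt 3D and KOd 3D alone, were chosen after seeing the data. Of 15 pairs of groups with 3 shared letters, only wt 3D and KOd 3D had every same-letter correlation over 0.1 (0.21 to 0.342), and no label says what a letter marks.

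The members and lists were chosen with earlier results of these data known. Values in every library are given for up to 4 genes a list with the largest change in a contrast among those that passed, provided the groups did not overlap and the mean log2 CPM was 1 or more, for HIF1A and EPAS1, and for pairs of related genes, and further genes were added where a result turned on them. From each wider list up to 4 genes with the smallest adjusted p in a contrast could be named, and NNMT is named as the targeted gene. A few genes of the wider and marker lists are not reported here by name.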

Additional observations from a re-analysis of the deposited data

Results flagged for a closer look

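For 18 genes the culture change (3D against 2D, log2) in labelled KOs differed from that in wt by the interaction test over all genes, 46.2% of the 39 beside 36.8% of all genes. Among the glycolysis genes the difference was 2.21 for ENO2, 2.12 for PDK1, 2.04 for HK2, 0.548 for LDHA and 0.33 for PGK1 on the higher side. On the lower side it was -1.82 for SLC2A1, -1.24 for PFKFB3, -0.583 for SLC16A1 and -0.573 for GAPDH. Among the HIF genes it was 2.16 for ADM, 1.04 for BNIP3, 1.03 for NDRG1, 0.84 for KDM3A, 0.775 for HIF1A and 0.74 for EPAS1, and -2.06 for EGLN3, -1.28 for VEGFA and -1.22 for P4HA2.

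For 25 genes the change in KOd differed from that in wt by the same test, 64.1% of the 39 beside 29.1% of all genes. The glycolysis genes with a higher value were ALDOC (3.12), ENO2 (2.03), HK2 (1.29), PFKM (1.18), SLC16A3 (1.17), LDHA (0.98), PGK1 (0.804), ALDOA (0.721), PGAM1 (0.678), GPI (0.533), LDHB (0.518), ENO1 (0.513), TPI1 (0.511), PKM (0.51), PDK1 (0.504) and PFKL (0.392). Those with a lower value were SLC2A1 (-0.706) and PFKFB3 (-0.447). The HIF genes were ANGPTL4 (2.32), BNIP3 (1.38), ADM (0.979), EPAS1 (0.907) and HIF1A (0.495) on the higher side and VEGFA (-1.99) and P4HA2 (-0.673) on the lower. When single libraries were left out, the calls for LDHA, PGK1 and NDRG1 in labelled KOs and for PFKFB3, PFKL, GPI and ANGPTL4 in KOd were lost in at least 1 fit. Both sets of differences share the wt libraries, and they reuse the libraries of the 3D against 2D and pool against wt comparisons.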

How the results depend on the processing

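Of 337 results for single genes that passed, 257 passed in every setting run, and 1 changed direction in some setting. CA9 in labelled KOs 3D against wt 3D was -2.31 and ran from -2.82 to 0.055 with single libraries left out, the latter without wt 3D replicate C, and went to 0.081 without the 3 libraries that stand apart. The NNMT difference, which did not pass, ran from -0.31 to 0.055 in labelled KOs 2D and from -0.35 to 0.022 in labelled KOs 3D with single libraries left out, and was 0.046 in the latter without the 3 libraries. The differences in CA9's culture change, which did not pass, ran from -0.42 to 2.41 in labelled KOs and from -2.38 to 1.05 in KOd with single libraries left out. Other results that did not pass were gained in some settings. Without the 3 libraries, SLC2A1 (-0.29, adjusted p = 0.00097), LDHA (-0.21, adjusted p = 0.01) and SLC16A3 (-0.23, adjusted p = 0.0083) passed in KOd 3D against 2D. The difference of labelled KOs from wt in ANGPTL4's culture change was -1.73 (adjusted p = 0.053). It was -2.24 (adjusted p = 1.8e-06) without labelled KOs 2D replicate A and -1.07 (adjusted p = 0.17) without replicate C. Of 404 counts of genes passing, 399 lay within 1.5 times the reported one. The share of all genes that passed is not set beside the counts of this section. A shift in a count may therefore be shared by all genes and need not be particular to the 39. For wt medium against 2D (20 genes) 10 passed at an adjusted p under 0.01, and for KOd against wt in 3D (19 genes) 11 did. For the change in labelled KOs against that in wt (18 genes) 28 passed without the 3 libraries. With each library left out in turn, the counts ran from 28 to 31 for wt 3D against 2D, 31 to 33 for labelled KOs, 20 to 28 for KOd, 8 to 22 for medium against 2D and 26 to 32 for wt 3D against medium. Against wt they ran from 22 to 31 (labelled KOs 2D), 31 to 34 (KOd 2D), 23 to 27 (labelled KOs 3D) and 14 to 25 (KOd 3D). Between the pools they ran from 27 to 33 in 2D and 15 to 22 in 3D, and for the differences in culture change from 15 to 23 (labelled KOs) and 23 to 27 (KOd). Without the 3 libraries 32 passed in wt, 34 in labelled KOs and 29 in KOd for 3D against 2D, and 35 in KOd 2D against wt.

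When the letter entered the model of every group as a replicate block, 30 genes passed for wt 3D against 2D, 33 for labelled KOs, 26 for KOd, 34 for KOd 2D against wt and 20 for KOd 3D against wt, and no count moved by more than 1.5 times. The pairing in wt 3D and KOd 3D gave 19. Library totals as the only scaling moved the median of all genes by 0.22 for labelled KOs 3D against 2D and by 0.11 for KOd against wt in 2D. The causes of these shifts were not tested. Each group holds 2 or 3 libraries, and the number limits the precision.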
